A study of Homo sapiens with 40 samples.

Results

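The receptors of the epidermal growth factor (EGF) family and the ligands that bind them were followed in U87 cells, an established human glioblastoma line, that carried different forms of the endoplasmic reticulum (ER) stress sensor IRE1. The genes were listed by name, namely the receptors EGFR, ERBB2 and ERBB3 and the ligands EREG, AREG, HBEGF, TGFA and BTC, 8 genes in all. Every probe set that the array annotation pairs with 1 of these symbols was taken, which gave 28 of the 40914 probe sets with 1 symbol, and 7 of the 19774 genes on the array. No probe set was paired with AREG in the annotation used, and AREG was not analysed here. The cells stably carried an empty vector (EV), wild-type IRE1 (WT), IRE1 with 1 of the tumor mutations S769F, Q780* (Q780Stop in the labels), P336L or A414T, or a dominant-negative IRE1 (IRE1-DN). Each line was left under basal conditions or stressed for 16 h with tunicamycin, an inhibitor of N-linked glycosylation, at 0.5 µg/ml, and 6 µg of total RNA went onto each of 40 arrays. Each line had 3 arrays in either condition except IRE1-DN, with 2 (replicates 2 and 3). The labels call the arrays biological replicates but name no separate cultures, so a p-value reflects the spread among these samples, which may be technical. The cells keep their own IRE1. The labels place all constructs behind a CMV promoter in a lentiviral vector, and the methods do so for every line but IRE1-DN. Titles of the mutant lines carry clone numbers, whereas the methods describe polyclonal populations selected with puromycin and do not describe the IRE1-DN cells.

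EGFR and its relatives are receptor tyrosine kinases of the cell surface. Their ligands are made as membrane-bound precursors that ADAM metalloproteases release, and a bound ligand joins receptors in pairs and switches on the Ras-ERK and PI3K-AKT cascades, which in turn raise the expression of early response genes and of feedback inhibitors. EGFR is among the genes most often altered in glioblastoma, and autocrine loops of ligand and receptor are known in these tumors.

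The values are RMA signals on a log2 scale, quantile-normalized over the arrays. For each gene the brightest probe set on average was used. A total of 17220 genes reached a log2 signal of 4.273 on at least 2 arrays and were tested, and all 7 measured genes were among them. The 14 groups of line and condition entered 1 limma fit, and a result was called when its Benjamini-Hochberg adjusted p was under 0.05, with no fold minimum. Pearson's r between arrays of a group was 0.9762 or more. The targeted gene, ERN1, was read by 3 probe sets that did not move alike. One of them was called higher than in EV cells in basal S769F (log2 difference 1.07) and A414T cells (0.85) and in treated WT (0.97), S769F (1.24), Q780* (1.34) and A414T cells (1.14). Another was lower in IRE1-DN cells in either condition (-1.05 and -0.99) and in treated A414T cells (-0.72). No call was made on the last one, nor on any of the 3 in P336L cells, so ERN1 checks the labels only in part. VIM and CD44, which mark mesenchymal glioblastoma cells, passed the filter on all 40 arrays. The astrocyte markers GFAP and S100B passed it on 2 and 0 arrays, and PTPRC (leukocytes), CDH5 (endothelium) and CDH1 (epithelium) on 0. The marker lists were split, however. Of the glial and glioma list, CHI3L1 passed on 40, NES on 37, SOX2 on 31 and OLIG2 on 14 arrays. In the leukocyte list AIF1 passed on 38, CD3E on 26 and CD14 on 0, and in the endothelial list PECAM1 on 40, VWF on 32 and KDR on 20. Of the epithelial list, EPCAM and KRT8 passed on 40, KRT5 on 26, KRT18 on 7 and KRT14 on 0.

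Of the ligand genes, EREG, AREG and BTC lie in 1 cluster on chromosome 4 (GRCh38.p14). EREG spans chr4:74365145-74388749, AREG starts 56.4 kb further on, and BTC spans chr4:74744759-74794523. TGFA spans chr2:70447284-70553826 and HBEGF chr5:140332843-140346603. The windows from 250 bases before to 50 after the start of the 4 measured ligand genes (RefSeq, GRCh38.p14, plus strand for EREG and minus strand for the others, written 5' to 3') are shown because these are the members whose signal changed with tunicamycin. They are chr4:74364895-74365194 (EREG), chr4:74794474-74794773 (BTC), chr2:70553777-70554076 (TGFA) and chr5:140346554-140346853 (HBEGF).
EREG: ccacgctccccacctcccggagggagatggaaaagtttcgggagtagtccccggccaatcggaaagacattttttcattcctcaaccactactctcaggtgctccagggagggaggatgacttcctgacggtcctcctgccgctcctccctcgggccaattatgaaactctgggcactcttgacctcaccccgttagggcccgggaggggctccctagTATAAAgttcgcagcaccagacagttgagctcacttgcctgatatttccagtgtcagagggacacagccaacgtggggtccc
BTC: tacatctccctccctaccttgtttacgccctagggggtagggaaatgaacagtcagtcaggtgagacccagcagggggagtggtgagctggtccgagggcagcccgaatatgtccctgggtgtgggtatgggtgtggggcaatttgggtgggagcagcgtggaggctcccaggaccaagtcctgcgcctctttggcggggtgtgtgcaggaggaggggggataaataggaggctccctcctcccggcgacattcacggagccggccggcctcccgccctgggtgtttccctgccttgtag
TGFA: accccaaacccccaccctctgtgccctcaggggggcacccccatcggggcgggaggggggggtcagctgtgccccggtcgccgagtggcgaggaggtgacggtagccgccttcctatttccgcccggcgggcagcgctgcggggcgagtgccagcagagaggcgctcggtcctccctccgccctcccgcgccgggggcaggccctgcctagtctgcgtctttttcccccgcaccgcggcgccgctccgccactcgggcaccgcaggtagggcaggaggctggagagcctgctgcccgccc
HBEGF: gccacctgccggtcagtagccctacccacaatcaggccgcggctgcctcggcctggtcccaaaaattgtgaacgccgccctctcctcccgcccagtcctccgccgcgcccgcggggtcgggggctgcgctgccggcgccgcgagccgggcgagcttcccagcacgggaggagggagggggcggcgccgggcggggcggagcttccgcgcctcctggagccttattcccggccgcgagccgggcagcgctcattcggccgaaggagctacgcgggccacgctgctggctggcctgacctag
Capitals mark matches on either strand to the TATA box, searched as TATAAA, the AP-1 site, searched as TGANTCA, the cAMP response element, searched as TGACGTCA, the unfolded protein response element, searched as TGACGTGG, which shares its opening letters with the one before, and the ATF4 composite element, searched as TGATGNAA. The TATA box of EREG, 32 bases before the start, was the only match, and 11.6% of 34796 RefSeq windows of this length hold its letters. The other shares were 7.73%, 1.84%, 0.733% and 3.63% in the order given. The windows of TGFA and HBEGF hold 75.3% and 75.0% G and C, those of BTC and EREG 63.0% and 57.7%, and the median over all windows was 58.7%. A match describes letters and shows no binding.

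With tunicamycin, BTC rose in all 7 lines, HBEGF fell in all 7 and TGFA fell in all but IRE1-DN cells, while no call was made on a receptor. In all, 22 of 49 pairs of member and line were called, 9 higher and 13 lower, beside 29.3% of all pairs of tested gene and line (15.3% higher and 14% lower). EV cells had 4 of 7 members called and each other line 3, beside 30.9% of all tested genes in EV, 29.2% in WT, 30.6% in S769F, 35.9% in Q780*, 25.9% in P336L, 33.1% in A414T and 19.7% in IRE1-DN cells.

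Against EV cells under basal conditions 12 of 42 pairs were called, 8 higher and 4 lower, beside 12.5% of all pairs (7.42% higher and 5.1% lower). WT and P336L cells had 2 of 7 members called, S769F and Q780* cells 1, A414T cells 2 and IRE1-DN cells 4, beside 8.57%, 9.04%, 6.15%, 5.17%, 18.5% and 27.6% of all tested genes in the same order. The 4 of IRE1-DN cells were 1 higher and 3 lower, with a median log2 difference over the 7 members of -0.71, beside -0.03 over all tested genes. On tunicamycin 10 of 42 pairs were called, 7 higher and 3 lower, beside 15.6% of all pairs (7.13% and 8.49%). WT, S769F and A414T cells had 1 member called, Q780* and P336L cells 2 and IRE1-DN cells 3, beside 12.1%, 9.03%, 24.8%, 9.64%, 12.2% and 26% of all tested genes in that order. All lines share the EV arrays, so the calls in different lines are not independent.

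**Figure D1:**
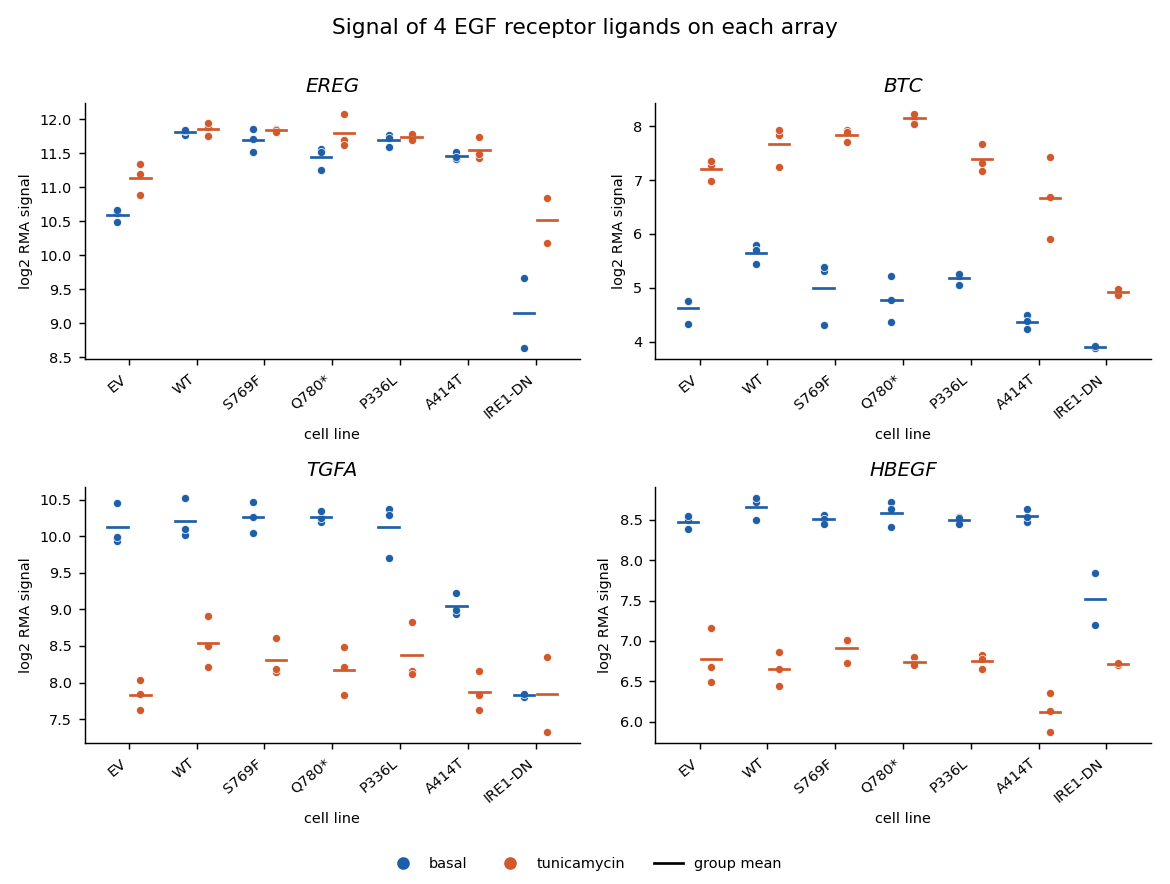
Log2 RMA signal (vertical axis) of EREG, BTC, TGFA and HBEGF on each array by cell line (horizontal axis), blue for basal conditions and orange for tunicamycin, with a bar at the group mean. EREG stands at a mean of 10.59 in basal EV cells, 11.44 to 11.81 in WT and the mutant lines and 9.15 in IRE1-DN cells, and TGFA at 7.83 in basal and 7.84 in tunicamycin-treated IRE1-DN cells.

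EREG, which encodes epiregulin, a ligand of EGFR and ERBB4, separated the lines already under basal conditions. Its basal log2 signal was 10.49, 10.62 and 10.66 on the 3 EV arrays and 11.76, 11.83 and 11.83 on those of WT cells. S769F cells had 11.51, 11.71 and 11.86, and Q780* cells had 11.26, 11.56 and 11.51. It was 11.59, 11.76 and 11.72 in P336L and 11.51, 11.42 and 11.45 in A414T cells, and 8.64 and 9.66 on the 2 IRE1-DN arrays. All arrays of WT and the mutant lines thus lay above the EV arrays, and both IRE1-DN arrays lay below them, far apart from each other. The log2 difference from EV cells was 1.22 in WT, 1.10 in S769F, 0.85 in Q780*, 1.10 in P336L and 0.87 in A414T cells (standard error 0.17, highest adjusted p = 0.00141 from limma). It was -1.44 in IRE1-DN cells (standard error 0.19, adjusted p = 5.22e-07). The mutant lines did not pass the test against WT cells. Their log2 differences from WT ran from -0.36 (95% confidence interval -0.72 to -0.01) in Q780* to -0.11 (-0.46 to 0.24) in S769F cells, while that of IRE1-DN cells was -2.65 (standard error 0.19, adjusted p = 2.52e-12). All basal A414T arrays lay below the WT arrays, though, and a t-test adjusted over all tested genes called that difference (-0.346, adjusted p = 0.0259). The same t-test did not call S769F (adjusted p = 0.0766), Q780* (0.136) or IRE1-DN cells against EV (0.142), or IRE1-DN against WT cells (0.0526).

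On tunicamycin the distances of EREG from EV cells were smaller. Its log2 signal was 10.88, 11.19 and 11.34 in EV, 11.89, 11.75 and 11.94 in WT, and 10.18 and 10.84 in IRE1-DN cells, so the WT arrays stayed above and the IRE1-DN arrays below the EV arrays. WT (0.72), S769F (0.70), Q780* (0.66) and P336L cells (0.60) were called higher (standard error 0.17, highest adjusted p = 0.0176 from limma) and IRE1-DN cells lower (-0.62, standard error 0.19, adjusted p = 0.0141). A414T cells, at 0.41 (95% confidence interval 0.06 to 0.76), were not called (adjusted p = 0.0835), although their 3 arrays (11.42, 11.73 and 11.49) lay above those of EV cells. They were called without either basal IRE1-DN array (adjusted p = 0.0251), which changes only the estimate of the spread. In Q780* cells, whose replicate numbers pair them with EV cells, a fit of both lines with the number as a block lost the call (adjusted p = 0.0993). Without EV tunicamycin replicate 1, the calls of S769F (adjusted p = 0.0639), Q780* (0.094) and P336L cells (0.116) were lost. That of Q780* cells was lost without their own replicate 1 on tunicamycin (adjusted p = 0.0997), that of P336L cells without their replicate 2 (0.0595), and that of IRE1-DN cells without their replicate 2 (log2 difference -0.30, adjusted p = 0.455) or EV replicate 3 (0.0723). With replicates 2 and 3 only, the calls of WT (0.58, adjusted p = 0.148), S769F (0.201), Q780* (0.476) and P336L cells (0.226) were lost. With only the arrays compared in the fit, those of Q780* (0.055) and IRE1-DN cells (0.109) were lost. The adjusted t-test called none of the lines (lowest adjusted p = 0.0933, in WT cells).

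The log2 change of EREG with tunicamycin itself was 0.55 in EV (standard error 0.17, adjusted p = 0.014 from limma) and 1.36 in IRE1-DN cells (standard error 0.21, adjusted p = 1.06e-05, and 0.0966 with only the IRE1-DN arrays in the fit), and between 0.05 and 0.35 in the other lines, which were not called. The call in EV cells was lost without EV tunicamycin replicate 3 (adjusted p = 0.0891) or EV basal replicate 1 (0.0578). Q780* cells were called without either basal IRE1-DN array (0.0413), which changes only the estimate of the spread. The change in IRE1-DN cells exceeded that in EV cells by 0.81 (95% confidence interval 0.26 to 1.37), which did not pass (adjusted p = 0.0834) but did without IRE1-DN basal replicate 3 (1.32, adjusted p = 0.00112) or tunicamycin replicate 2 (1.14, adjusted p = 0.0231). A second EREG probe set, with r = 0.739 to the one used over the 40 arrays, was called higher with tunicamycin in WT (log2 change 1.74), S769F (1.47), Q780* (1.27) and A414T cells (1.21), where the one used was not.

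BTC encodes betacellulin, which binds EGFR and ERBB4. It was called higher with tunicamycin in every line. Its log2 signal went from 4.33, 4.76 and 4.75 to 6.98, 7.27 and 7.36 in EV cells and from 4.37, 4.76 and 5.21 to 8.17, 8.05 and 8.22 in Q780* cells. In IRE1-DN cells it went from 3.89 and 3.93, which is below the filter, to 4.87 and 4.98. The treated arrays lay above the untreated ones in each line, but the treated IRE1-DN arrays only reached the range of untreated Q780* arrays. The log2 change was 2.59 in EV, 2.03 in WT, 2.85 in S769F, 3.37 in Q780*, 2.22 in P336L and 2.30 in A414T cells (standard error 0.27, highest adjusted p = 6.59e-07 from limma), which spans 4.08-fold to 10.3-fold, and 1.01 in IRE1-DN cells (standard error 0.33, adjusted p = 0.0254). The change in IRE1-DN cells differed from that in EV cells by -1.57 (standard error 0.42, adjusted p = 0.0235), on a scale that compresses the change from untreated arrays below the filter. Both calls were lost when any 1 of the 4 IRE1-DN arrays was left out (adjusted p from 0.0816 to 0.127 for the change and from 0.0609 to 0.0916 for the difference). The difference was also lost without EV basal replicate 1 (0.0627) or EV tunicamycin replicate 3 (0.0595) and with the mean of both probe sets (-0.75, 0.099), and the change with the 3' minus 5' signal of ACTB, a sign of RNA integrity, as a covariate (0.239).

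Between lines, BTC was called lower in IRE1-DN cells on tunicamycin, by a log2 difference of -2.28 from EV (standard error 0.30, adjusted p = 4.08e-07 from limma) and -2.75 from WT cells (adjusted p = 1.44e-08). Under basal conditions its difference from EV cells was -0.71 (adjusted p = 0.0787), called without A414T tunicamycin replicate 1 (0.0382) or 2 (0.0399) or S769F basal replicate 1 (0.0467), which changes only the estimate of the spread. WT cells under basal conditions (5.80, 5.44 and 5.69) were 1.03 above EV cells (standard error 0.27, adjusted p = 0.0104), with no overlap of the arrays, and the call was lost without basal replicate 1 of EV (0.0711) or WT cells (0.0567). Q780* cells on tunicamycin were 0.94 above EV cells (standard error 0.27, adjusted p = 0.0194), not called without tunicamycin replicate 1 of EV (0.104) or replicate 1 or 3 of Q780* cells (0.0613 and 0.0666). A414T cells differed from WT cells by -1.27 under basal conditions (adjusted p = 0.000827) and by -0.999 on tunicamycin (adjusted p = 0.00788). Their 3 tunicamycin arrays were spread over 5.90, 7.43 and 6.68 and overlapped those of WT cells (7.25, 7.84 and 7.93). Without replicate 1 of them the latter call was lost (-0.61, adjusted p = 0.0944), and without replicate 2 A414T cells were called lower than EV cells (-0.91, adjusted p = 0.0096). Of the BTC probe sets, the one that cites a RefSeq mRNA was the dimmer and reached the filter on 3 arrays. It was called higher with tunicamycin in WT (0.95), S769F (0.51) and Q780* cells (0.99), with log2 changes of 0.15 in EV (adjusted p = 0.519) and 0.21 in IRE1-DN cells (adjusted p = 0.533).

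TGFA, the gene of transforming growth factor alpha, a ligand of EGFR, fell with tunicamycin in 6 lines. Its log2 signal went from 9.93, 9.99 and 10.45 to 8.04, 7.63 and 7.84 in EV and from 10.01, 10.11 and 10.52 to 8.91, 8.22 and 8.49 in WT cells. A414T cells started lower, at 8.93, 8.99 and 9.23, and reached 7.62, 7.83 and 8.16. IRE1-DN cells stood at 7.81 and 7.85 under basal conditions and at 8.36 and 7.33 on tunicamycin, so their untreated arrays lay within the range of the treated EV arrays. The log2 change was -2.29 in EV, -1.67 in WT, -1.95 in S769F, -2.09 in Q780*, -1.75 in P336L and -1.18 in A414T cells (standard error 0.24, highest adjusted p = 0.000195 from limma). In IRE1-DN cells it was 0.01 (95% confidence interval -0.59 to 0.61, adjusted p = 0.991).

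Under basal conditions TGFA was called lower than in EV cells in IRE1-DN (log2 difference -2.29, standard error 0.27, adjusted p = 4.2e-08 from limma) and A414T cells (-1.07, standard error 0.24, adjusted p = 0.00112), whereas the differences of the other lines ran from 0.00 to 0.14. Against WT cells the same lines were lower, by -2.38 (adjusted p = 2.1e-08) and -1.16 (adjusted p = 0.00066). The change with tunicamycin differed from that in EV cells by 2.30 in IRE1-DN (standard error 0.38, adjusted p = 0.000197) and by 1.11 in A414T cells (standard error 0.34, adjusted p = 0.042). The latter call was lost without any of 8 arrays, namely replicates 2 and 3 of EV cells in either condition, replicates 1 and 2 of basal and 2 and 3 of treated A414T cells (adjusted p from 0.0568 to 0.139). It was also lost with the arrays centred on the median (0.0627), with every probe set tested as a row of its own (0.0596) and with the mean of the TGFA probe sets (0.72, adjusted p = 0.0632). On tunicamycin the log2 differences between WT and EV (0.70, adjusted p = 0.0508), A414T and WT (-0.67, adjusted p = 0.0509) and IRE1-DN and WT cells (-0.70, adjusted p = 0.0513) all lay just outside the threshold. Leaving out 1 of 10 to 12 arrays brought each of them inside it (lowest adjusted p = 0.0288, 0.0301 and 0.00412). Most of these arrays are not of the groups compared, and leaving them out changes only the estimate of the spread. Between WT and EV cells, which the replicate numbers pair, the number as a block also brought the difference inside the threshold (adjusted p = 0.0213). A second TGFA probe set, with r = 0.908 to the first, was called lower with tunicamycin in EV, WT, S769F, Q780* and P336L cells and changed by -0.14 in A414T (adjusted p = 0.761) and -0.10 in IRE1-DN cells (adjusted p = 0.909).

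**Figure D2:**
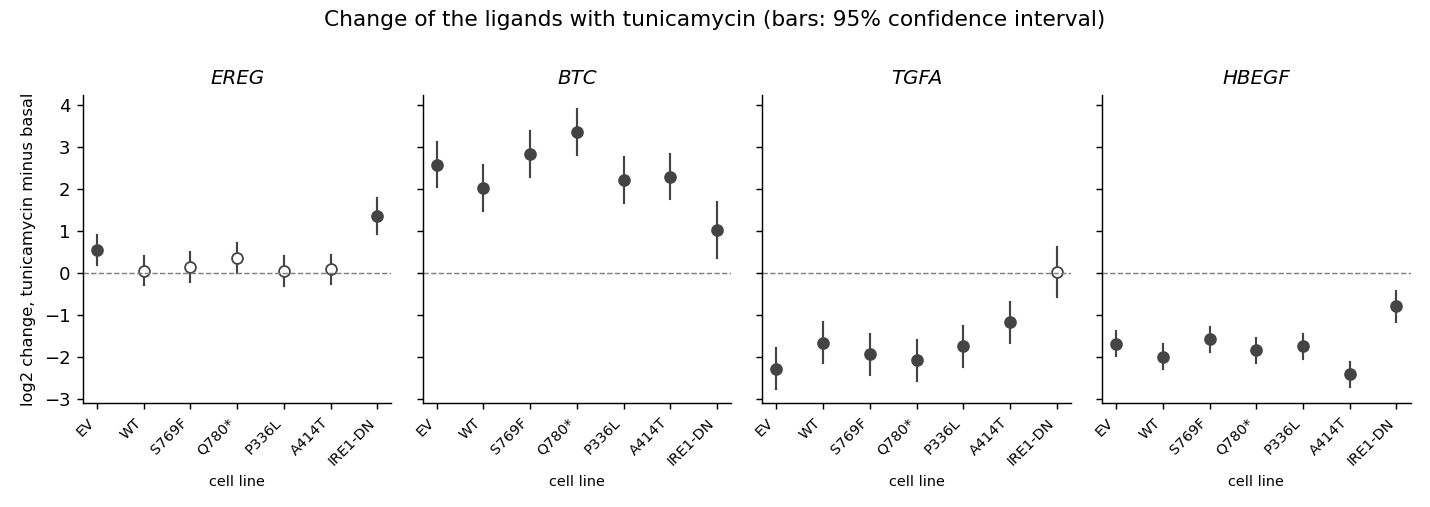
Log2 change with tunicamycin (vertical axis, treated minus basal group mean) of the 4 ligands in each line (horizontal axis), with 95% confidence intervals from limma as bars and filled points for called changes. BTC lies above 0 in all 7 lines, HBEGF below 0 in all 7, and the point of TGFA in IRE1-DN cells lies at 0.01.

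HBEGF encodes heparin-binding EGF-like growth factor, a ligand of EGFR and ERBB4. It fell with tunicamycin in every line. Its log2 signal went from 8.50, 8.54 and 8.38 to 7.16, 6.68 and 6.50 in EV cells, from 8.64, 8.48 and 8.53 to 6.36, 5.88 and 6.14 in A414T cells and from 7.84 and 7.20 to 6.70 and 6.73 in IRE1-DN cells. No treated array of a line overlapped its untreated arrays, the treated A414T arrays lay below all treated EV arrays, and the untreated IRE1-DN arrays below all untreated EV arrays. The log2 change was -1.69 in EV, -2.01 in WT, -1.59 in S769F, -1.85 in Q780*, -1.75 in P336L and -2.43 in A414T cells (standard error 0.15, highest adjusted p = 6.58e-10 from limma). In IRE1-DN cells it was -0.80 (standard error 0.18, adjusted p = 0.00124), with no call without IRE1-DN basal replicate 2 (-0.48, adjusted p = 0.113) or with only the IRE1-DN arrays in the fit (0.0994).

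The change of HBEGF differed from that in EV cells by -0.73 in A414T (standard error 0.21, adjusted p = 0.0275 from limma) and by 0.89 in IRE1-DN cells (standard error 0.23, adjusted p = 0.019). The call in A414T cells was lost without any of 5 arrays, EV basal replicate 3, EV tunicamycin replicate 1, A414T basal replicate 1 or A414T tunicamycin replicate 2 or 3 (adjusted p from 0.0542 to 0.11). It was also lost after another quantile normalization (-0.59, adjusted p = 0.137), with the mean of the HBEGF probe sets (-0.33, 0.154) and with only the EV and A414T arrays in the fit (0.147). That in IRE1-DN cells was lost without IRE1-DN basal replicate 3 (0.57, adjusted p = 0.223), either tunicamycin IRE1-DN array (0.0628 and 0.0675) or EV tunicamycin replicate 3 (0.0693), with the ACTB signal as a covariate (0.86, adjusted p = 0.0624) and with only the EV and IRE1-DN arrays (0.191). HBEGF was also called lower than in EV cells in basal IRE1-DN (log2 difference -0.95, standard error 0.16, adjusted p = 2.92e-05) and treated A414T cells (-0.66, standard error 0.15, adjusted p = 0.001). Against WT cells these differences were -1.14 (adjusted p = 1.84e-06) and -0.53 (adjusted p = 0.0102). The latter was lost with the replicate number, which pairs these arrays, as a block (0.0674) and without tunicamycin replicate 2 of A414T (0.0857) or replicate 1 of WT cells (0.078). A second HBEGF probe set, with r = 0.957 to the first, was called lower with tunicamycin in all 7 lines as well, from -3.02 in A414T to -1.06 in IRE1-DN cells.

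**Figure D3:**
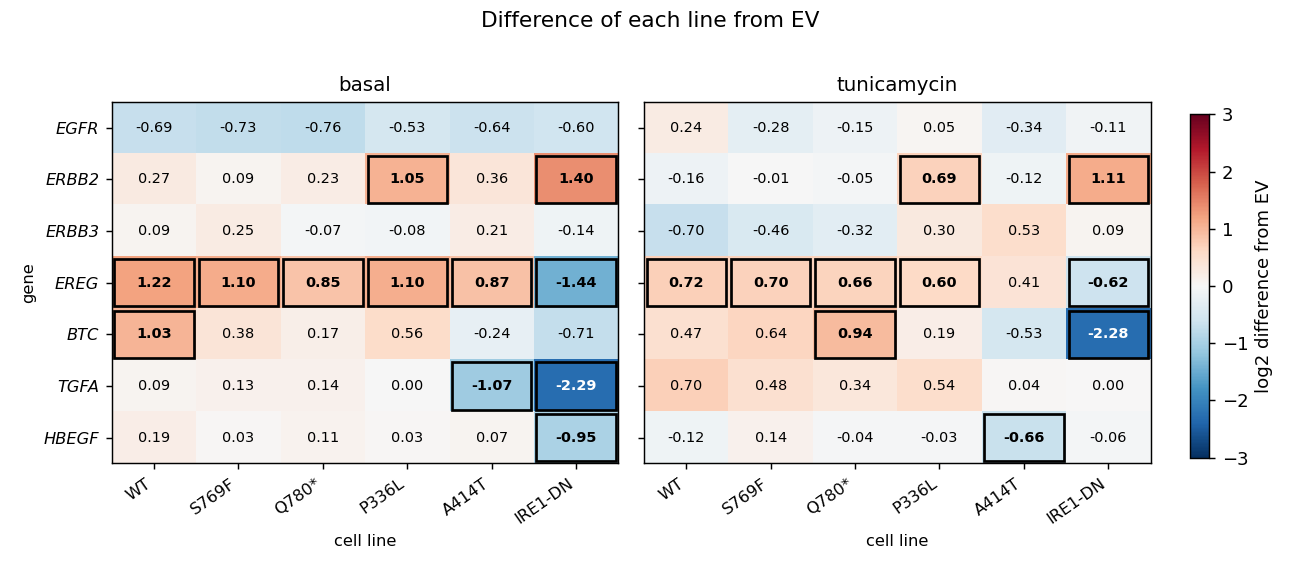
Log2 difference of each line from EV cells (columns) for the 7 measured members (rows) under basal conditions and on tunicamycin, with the value in each field, red for higher and blue for lower. Framed fields were called, 12 of 42 under basal conditions and 10 of 42 on tunicamycin, and none of them belongs to EGFR or ERBB3.

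Among the receptors, ERBB2, which has no known ligand and acts by pairing with the other receptors, was called higher in P336L and IRE1-DN cells. Its basal log2 signal was 4.81, 4.74 and 4.63 in EV, 5.21, 6.18 and 5.94 in P336L and 5.94 and 6.30 in IRE1-DN cells. On tunicamycin it was 5.01, 4.80 and 5.48 in EV, 5.84, 6.03 and 5.50 in P336L and 6.33 and 6.08 in IRE1-DN cells. The P336L and IRE1-DN arrays lay above all EV arrays of the same condition, by little in the case of the last treated P336L array. Under basal conditions the log2 difference from EV cells was 1.05 in P336L (standard error 0.20, adjusted p = 0.000442 from limma) and 1.40 in IRE1-DN cells (standard error 0.23, adjusted p = 1.18e-05). It was 0.69 (adjusted p = 0.0203) and 1.11 (adjusted p = 0.000291) on tunicamycin. Against WT cells, IRE1-DN cells were 1.13 (adjusted p = 0.000217) and 1.27 higher (adjusted p = 5.09e-05) and P336L cells 0.79 (adjusted p = 0.035, overlapping arrays) and 0.85 (adjusted p = 0.0258). ERBB2 did not pass the test for a change with tunicamycin in any line, and its other 2 probe sets were not tested because they did not pass the filter.

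The ERBB2 calls of IRE1-DN cells held without any 1 array, those of P336L cells in part. On tunicamycin the call of P336L against EV cells was lost without replicate 1 or 2 of either line (adjusted p from 0.06 to 0.144). Against WT cells it was lost under basal conditions without replicate 1 or 3 of WT or 2 or 3 of P336L cells (adjusted p from 0.103 to 0.317), and on tunicamycin without any WT array or replicate 1 or 2 of P336L cells (adjusted p from 0.0597 to 0.197). It was also lost on tunicamycin with the replicate number, which pairs P336L with WT cells there, as a block (0.0728). With only the EV and P336L arrays in the fit, the basal call was lost too (adjusted p = 0.0623), as it was with the mean of the 3 ERBB2 probe sets, 2 of them below the filter (log2 difference 0.29, adjusted p = 0.0673). Beside ERBB2, KRT18, which encodes an epithelial keratin, was 5.25 higher in basal and 4.69 higher in treated P336L cells than in EV cells (standard error 0.16, highest adjusted p = 1.11e-19 from limma), and 0.08 and 0.09 apart in IRE1-DN cells (not called). Of the 6 listed epithelial markers 4 were tested, and KRT18 was the only 1 called in P336L against EV cells. The summed signal of the 6, KRT18 included, was 8.89 to 9.69 on the log2 scale in basal P336L, 6.78 to 7.29 in basal EV and 7.26 to 7.51 in basal IRE1-DN cells, with CDH1 and KRT14 above the filter on 0 arrays. The part of this in the ERBB2 result was not tested.

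EGFR, the receptor that all these ligands bind, did not pass the test in any of the 35 comparisons. Its basal log2 signal was 8.87, 9.51 and 9.42 on the EV and 8.52, 8.36 and 8.83 on the WT arrays. S769F cells had 8.69, 8.36 and 8.55, Q780* cells 8.49, 8.46 and 8.56, and A414T cells 8.40, 8.71 and 8.76. The basal EV arrays lay above the arrays of these 4 lines, while P336L (8.56, 8.77 and 8.87) reached the lowest of them and IRE1-DN cells (8.17 and 9.15) overlapped them. The log2 difference from EV cells was -0.69 in WT (95% confidence interval -1.21 to -0.18), -0.73 in S769F (-1.25 to -0.21), -0.76 in Q780* (-1.28 to -0.25) and -0.64 in A414T cells (-1.16 to -0.13), with adjusted p from 0.0799 to 0.0929 from limma. In WT, S769F and Q780* cells, which the replicate numbers pair with EV cells, the number as a block in the fit of all arrays brought the call (adjusted p = 0.0441, 0.0407 and 0.0345). The block in a fit of the basal EV arrays and those of the line alone did not (0.0906, 0.135 and 0.0933).

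Leaving out EV basal replicate 1, the lowest of the 3 for EGFR, brought the call in WT, S769F, Q780* and A414T cells (adjusted p from 0.0333 to 0.0422 from limma). Leaving out Q780* tunicamycin replicate 3 did so in Q780* (0.0457) and A414T cells (0.0483), which changes only the estimate of the spread. Without IRE1-DN basal replicate 3, IRE1-DN cells were called (-1.09, adjusted p = 0.016). On tunicamycin the differences of EGFR from EV cells ran from -0.34 in A414T to 0.24 in WT cells, and its changes with tunicamycin from -0.45 in EV to 0.48 in WT cells. EGFR had 9 probe sets, of which 8 were tested. The next brightest, with r = 0.737 to the first, was called lower than in EV cells in basal S769F (-1.03, adjusted p = 0.0413) and P336L cells (-1.01, adjusted p = 0.0347), and the other tested ones had r between -0.24 and 0.11 with the first. Among the latter was a probe set that cites a RefSeq mRNA, with a mean log2 signal of 7.058 and above the filter on all 40 arrays. Its r with the first was -0.178, so the EGFR probe sets did not move alike.

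ERBB3, a receptor for neuregulins with a weak kinase, was not called in any comparison either. Its representative probe set ranged from 5.17 to 8.09 over the arrays and varied within groups, for example 8.09, 6.10 and 6.16 in basal A414T and 7.44, 5.91 and 6.12 in basal P336L cells. With group means removed, it followed the hybridization control bioB with r = -0.683 over the 40 arrays. For the other members this r ran from -0.363 in HBEGF to 0.509 in EREG, with 0.429 in BTC. The part of bioB in the spread and in the differences of these genes was not tested. Of the 5 ERBB3 probe sets 3 were tested, and the one that cites a RefSeq mRNA reached the filter on 1 array. The largest log2 change with tunicamycin was -1.11 in WT cells (adjusted p = 0.0958 from limma), called without WT basal replicate 3 (-1.47, adjusted p = 0.0399), and that in S769F cells was -1.03 (adjusted p = 0.125). Both were called with the ACTB signal as a covariate (-1.33, adjusted p = 0.0177 in WT, and -1.82, adjusted p = 0.00406 in S769F cells) and with only the arrays of the line in the fit (0.0447 and 0.0293). Without A414T tunicamycin replicate 1, ERBB3 was called higher in treated A414T than WT cells (1.67, adjusted p = 0.0281).

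**Figure D4:**
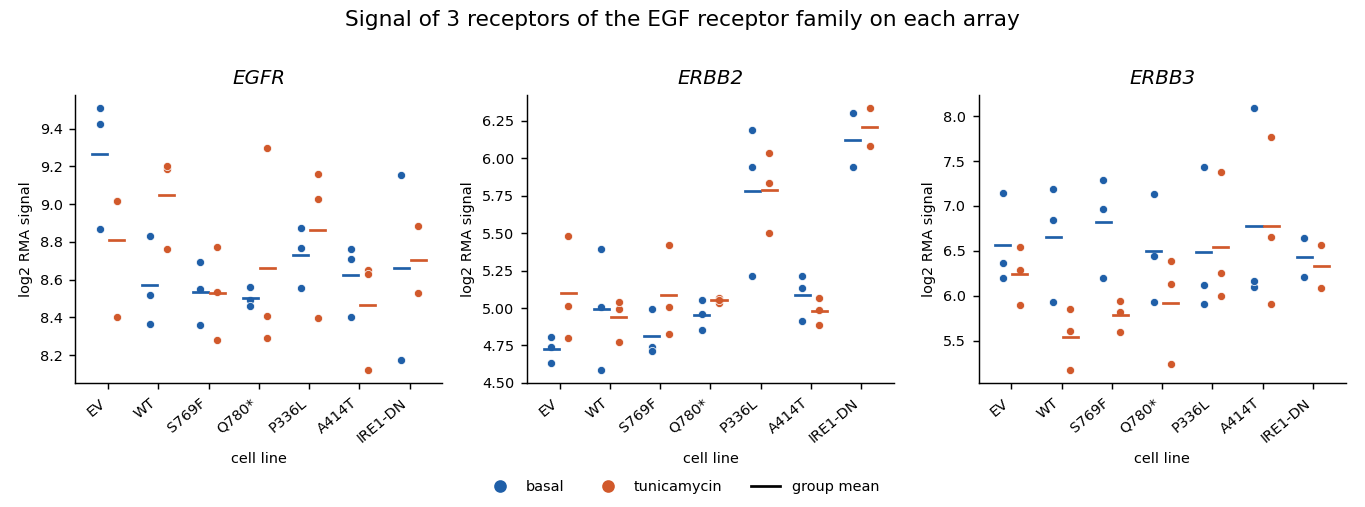
Log2 RMA signal (vertical axis) of EGFR, ERBB2 and ERBB3 on each array by cell line (horizontal axis), blue for basal conditions and orange for tunicamycin, with a bar at the group mean. The ERBB2 means of P336L cells (5.78 basal, 5.79 treated) and IRE1-DN cells (6.12 and 6.21) are above those of the other lines (4.73 to 5.10), while the arrays of ERBB3 scatter within groups.

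The change with tunicamycin differed from that in EV cells in 5 of 42 pairs of member and line, 3 in the positive and 2 in the negative direction, beside 2.45% of all pairs (0.762% and 1.69%). These are TGFA and HBEGF in A414T (2 of 7, beside 6.82% of all tested genes) and TGFA, HBEGF and BTC in IRE1-DN cells (3 of 7, beside 5.19%). No member was called in WT, S769F, Q780* or P336L cells. Against WT cells, 8 of 35 pairs were called under basal conditions, 2 higher and 6 lower (beside 10.1% of all pairs, 5.55% higher and 4.6% lower), and 6 of 35 on tunicamycin, 2 higher and 4 lower (beside 11.5%, 5.48% and 6%). IRE1-DN cells had 5 of 7 members called against WT cells under basal conditions (beside 29.5%) and 3 on tunicamycin (beside 26.6%), and A414T cells 2 in either condition (beside 15.3% and 17.6%). No member was called in S769F or Q780* against WT cells. The largest of these log2 differences was that of BTC in basal Q780* cells, -0.86 (95% confidence interval -1.41 to -0.32, adjusted p = 0.111 from limma). It passed with a block over all arrays (0.0484, paired numbers), though not with the block on the basal arrays of both lines alone (0.267). It also passed without A414T tunicamycin replicate 1 (0.0432) or 2 (0.0469), which changes only the estimate of the spread.

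Over the 14 group means, HBEGF and TGFA followed each other (Pearson's r = 0.891) and ran against BTC (-0.70 and -0.45), while EREG had r = 0.593 with BTC. These are descriptions over means that share a treatment and an RMA run. The genes whose 14 means were most like those of EREG were MRPS33 (r = 0.932), TCAIM (0.931) and MTHFD2L (0.922), a gene of mitochondrial folate metabolism that ends 62.0 kb before EREG on chromosome 4. For BTC they were IFI35 (0.989), NICN1 (0.986) and RNASEK (0.982), for TGFA MAT2B (0.976), LBHD1 (0.958) and TOMM22 (0.957), and for HBEGF BRIX1 (0.989), NFATC2IP (0.984) and CTPS1 (0.982). The ERBB2 means were most like those of NXN (0.969) and of the cytoskeletal genes TAGLN (0.960) and MYH10 (0.951). The best matches were lower for ERBB3 (LHFPL3-AS1 0.903, MIR34BHG 0.893, ASIC5 0.891) and EGFR (GTPBP8 0.881, CRYGC 0.801, BTAF1 0.784), and each was picked as the highest among all tested genes.

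Of the other receptor and ligands of the family, 4 of 7 listed genes were tested. EGF, the founding ligand, was 2.92 higher in basal IRE1-DN than in EV cells (adjusted p = 6.15e-13 from limma). It changed by -2.50 with tunicamycin in that line, which differed from the change in EV cells by -2.56 (adjusted p = 4.65e-07). The EV means of EGF, 4.302 basal and 4.362 treated, lay near the filter, so its differences from EV cells start from a signal near background. It rose with tunicamycin in S769F (0.94), Q780* (0.84) and WT cells (0.57). NRG1, a neuregulin that binds ERBB3 and ERBB4, was called higher than in EV cells in basal WT (0.999) and P336L cells (0.56) and lower in A414T cells (-0.94), which differed from WT cells by -1.94 (adjusted p = 8.41e-10). NRG2 was called lower in IRE1-DN than in EV cells in either condition (-1.72 and -1.73), with IRE1-DN means near the filter (4.425 and 4.346). On tunicamycin it was also called lower than in EV cells in A414T (-0.925), WT (-0.78) and P336L cells (-0.735). ERBB4 reached the filter on 7 arrays and was not called.

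The 8 listed genes of ligand shedding were all tested. ADAM17, the main sheddase of the TGFA, HBEGF and EREG precursors, rose with tunicamycin in all 7 lines, by 0.97 in A414T to 1.44 in Q780* cells (highest adjusted p = 2.68e-08 from limma), and on tunicamycin it was called higher than in EV cells in all lines but A414T. ADAM10, the main sheddase of BTC, was called lower than in EV cells on tunicamycin in all 6 other lines, and ADAM12 higher in all 6. RHBDF1, which encodes iRhom1, a partner of ADAM17, was called lower in A414T than in EV cells, at -1.03 under basal conditions and -0.80 on tunicamycin. In the change with tunicamycin, 1 to 3 of the 8 were called higher and 0 or 1 lower, with a median log2 change of 0.03 to 0.33 in the 7 lines, beside -0.04 to 0.02 over all tested genes. Of all tested genes 9.08% to 19.9% were called higher and 10.6% to 17.3% lower, depending on the line.

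Of 20 listed adaptors and kinases of the cascade 14 were tested. SOS2, an exchange factor that loads Ras with GTP, was called higher than in EV cells in all 6 lines and in either condition, from 0.56 in treated WT to 3.48 in basal IRE1-DN cells (adjusted p = 5.91e-15 from limma for the latter). In basal IRE1-DN cells 6 of the 14 were higher and 2 lower than in EV cells (beside 15.2% and 12.4% of all tested genes), with a median log2 difference of 0.05, beside -0.03 over all tested genes. With tunicamycin 3 to 6 were higher and 1 to 4 lower (beside 15.3% and 14% over all lines and tested genes), and MAP2K1, which encodes the ERK kinase MEK1, was among the lower ones in all 7 lines. Of 13 listed inhibitors and ubiquitin ligases of the receptors 12 were tested, and 1 to 4 were higher and 1 to 3 lower with tunicamycin (beside the same 15.3% and 14%), with medians of -0.05 to 0.04. CBLB, a ubiquitin ligase for activated receptors, rose with tunicamycin in all 7 lines, by 0.82 in IRE1-DN to 2.20 in A414T cells, and SOCS5, an inhibitor of EGFR, was lower in all 7. ERRFI1, the feedback inhibitor also called MIG6, was lower in the 6 lines other than IRE1-DN, whose change differed from that of EV cells by 0.96 (adjusted p = 0.037).

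**Figure D5:**
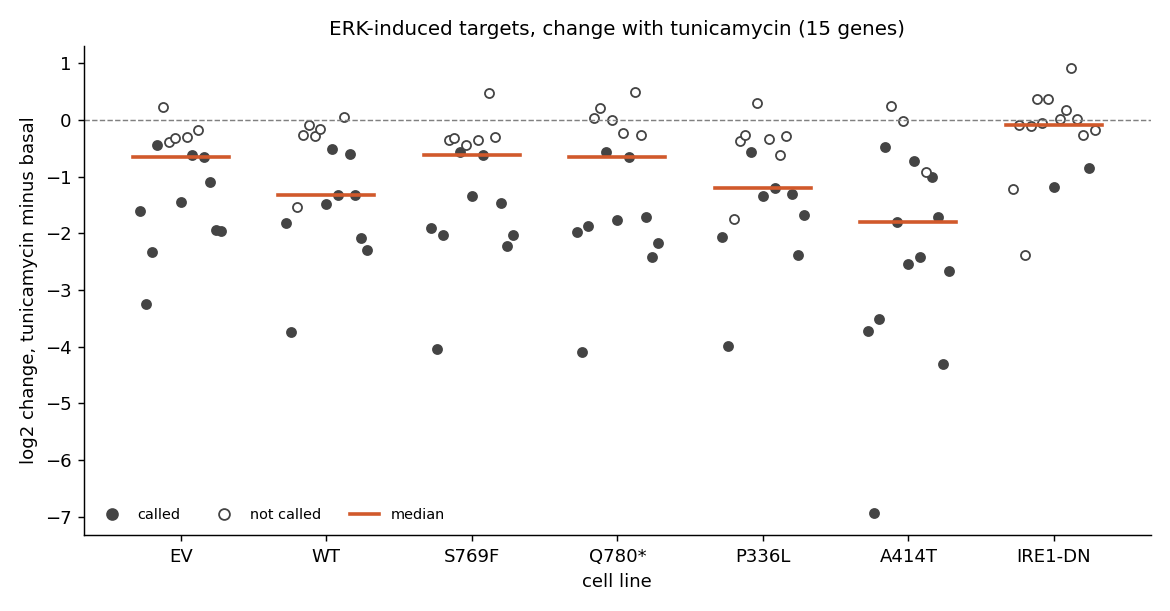
Log2 change with tunicamycin (vertical axis) of the 15 tested ERK-induced targets in each line (horizontal axis), 1 point per gene in the same order within each line, filled where called, with the median as an orange bar. The median is -1.80 in A414T and -0.08 in IRE1-DN cells, the lowest and highest of the 7 lines.

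Of 16 listed genes that ERK induces, 15 were tested. With tunicamycin 10 were called lower in EV, 9 each in WT, S769F and Q780*, 8 in P336L, 12 in A414T and 2 in IRE1-DN cells, and none was called higher. The share of all tested genes called lower was 12.7% in EV cells and ran from 10.6% in IRE1-DN to 17.3% in A414T cells. The median log2 change was -0.65 in EV, -1.80 in A414T and -0.08 in IRE1-DN cells, beside 0.00, -0.01 and 0.02 over all tested genes. DUSP6, an ERK phosphatase and a common reporter of ERK output, changed by -3.25 in EV and -6.94 in A414T cells, and SPRY2, a feedback inhibitor of receptor signaling, by -1.94 and -4.32 (highest adjusted p = 4.45e-07 from limma). The change in A414T cells was more negative than in EV cells for 7 of the 15 genes (beside 4.54% of all tested genes), DUSP6 (-3.68), SPRY2 (-2.38) and CCND1 (-2.12) among them. The mean of DUSP6 in treated A414T cells, 3.89, lay below the filter, so its values there are differences from a signal at background. That in IRE1-DN cells was more positive for 4 (beside 1.38%), among them DUSP6 (3.17) and SPRY4 (1.79). Under basal conditions 5 were lower in IRE1-DN than in EV cells (beside 12.4% of all tested genes), led by DUSP6 (-5.06, adjusted p = 6.14e-10) and SPRY2 (-2.41), with a median over the list of -0.77, beside -0.03 over all tested genes. In basal A414T cells FOSL1 (1.37, adjusted p = 1.12e-08 from limma) and MYC (0.59, adjusted p = 0.0156) were called higher than in EV cells, beside 10.4% of all tested genes.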

How the data were processed

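Total RNA of 40 U87 samples was hybridized to Affymetrix arrays, 1 array per sample, and per the labels and methods the authors deposited log2 signals computed by RMA, which corrects the background, normalizes the arrays to 1 distribution and sums the probes of a probe set. For the RMA software, a version is not given in these sources. Quantile normalization removes any shift common to all genes. Of 54715 probe sets, 102 controls were left out, 40914 had 1 symbol (40858 updated through the Entrez ID), 864 several and 12835 none. No column of another sample was in the table (0 columns).

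The probe set with the highest mean stood for a gene, and 17220 of 19774 genes were tested, those that 2 or more arrays placed no lower than percentile 40 of the whole table. limma 3.58.1 (R 4.3.3) fitted the 14 group means (26 residual and 3.439 prior degrees of freedom), p-values were adjusted over all tested genes in each of 35 comparisons, and 33069 probe sets were tested in the same way. Python 3.11.15, pandas 2.3.3 and matplotlib 3.10.9 were also used. The number of arrays limits the precision. The members and lists were chosen with earlier results of these data known, the lists by known function. Named were all members in every comparison, up to 3 called genes per list and comparison with the largest change, and the 3 genes most alike to each member. Other genes of a list were named where a count over all lines concerned them. The fit was also run on simulated arrays of independent normal values with known positive shifts. These held no replicate pairing, no spread that differed between groups and no floor, so they do not bear on such features of the data.

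The labels do not say what a replicate number stands for. Same-numbered arrays deviated together (every r above 0.1) in 9 of 29 comparisons of 2 groups, those of WT, S769F and Q780* with EV cells under basal conditions, WT and Q780* with EV on tunicamycin, S769F and Q780* with WT under basal conditions, and P336L and A414T with WT on tunicamycin, and were taken as paired there. Alternatives were a stricter filter, other normalizations and moderation, the mean of probe sets, each probe set alone, only the arrays compared, replicate blocks, a fold minimum, the methods' t-test, an ACTB covariate and leaving out arrays.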

Additional observations from a re-analysis of the deposited data

Results flagged for a closer look

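In 5 pairs of member and line the change with tunicamycin differed from that in EV cells by limma's test of the difference itself (adjusted p from 0.000197 to 0.042). HBEGF fell further in A414T cells than in EV cells (difference of log2 changes -0.732, 3 arrays per group) and less far in IRE1-DN cells (0.891, 2 arrays per group). TGFA fell less far in A414T cells (1.11) and did not change in a called manner in IRE1-DN cells (2.299). The measured rise of BTC was smaller in IRE1-DN cells (-1.572), whose 2 untreated arrays (3.89 and 3.93) lay below the filter of 4.273, where differences are compressed. Of these, the difference of TGFA in IRE1-DN cells kept its call without any 1 array, and each of the others lost it without at least 4 different arrays. No group held more than 3 arrays, so no array was tested as an outlier.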

How the results depend on the processing

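No member turned its direction in a called result. Of the counts, 22 called changes with tunicamycin stayed within 18 to 25 under all settings (21 to 23 without 1 array). The 12 calls against EV cells under basal conditions were 5 by the methods' t-test after adjustment and 20 before it, and 11 to 15 without 1 array. The 10 on tunicamycin were 2 with a 2-fold minimum, 1 by the adjusted t-test, 5 with replicates 2 and 3 only, and 5 (without EV tunicamycin replicate 1) to 11 without 1 array. The 8 against WT cells under basal conditions were 5 by the adjusted t-test and 7 to 9 without 1 array. The 6 on tunicamycin were 3 with only the arrays compared, 3 with a 2-fold minimum, 2 by the adjusted t-test and 4 to 8 without 1 array. The 5 differences of change were 2 with the mean of all probe sets, 3 with only the arrays compared, 3 with a 2-fold minimum, and 2 (without EV tunicamycin replicate 3) to 5 without 1 array. The causes were not tested. With the replicate number as a block over all arrays the count against EV cells under basal conditions was 17, and as a block on the paired arrays the count against WT cells on tunicamycin was 4. In the comparisons whose numbers pair the arrays, the block changed no call beyond those named above. For the change with tunicamycin in IRE1-DN cells, a fit of the IRE1-DN arrays alone was also run with crossed pairs, chosen after seeing the data. With 1 residual degree of freedom, it called 1 member and 2045 genes, against 2 and 1429 with the same numbers paired. Without a block these arrays gave 1 and 1821 (2 degrees of freedom), while the main fit called 3 members in this comparison. The t-test was not run for differences of change. Signals near or below the filter give compressed differences. They include those of ERBB2, of BTC in basal and NRG2 in all IRE1-DN cells, of EGF in EV, KRT18 in EV and IRE1-DN and DUSP6 in treated A414T cells.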
